A study of Danio rerio with 2 samples.

Results

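The cytotoxic effector genes of zebrafish were examined in 2 bulk RNA-seq libraries of cells sorted for EGFP from *cd8a* reporter fish. They comprised 10 listed symbols, *gzma*, *gzmk*, *gzm3*, *prf1.3*, *nkl.1*, *nkl.2*, *nkl.3*, *nkl.4*, *faslg* and *ifng1*, and every gene named as a granzyme (gzm), a perforin (prf1) or an NK-lysin (nkl). The genes were picked by name, but the members and lists were chosen with earlier results of these data known. Of the 10 symbols 9 matched a gene, *nkl.1* was not analysed here, and the 3 families held 17 genes, so 19 of the 32520 genes counted were described.

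Killer lymphocytes store a set of proteins in granules and release them onto a target cell. Perforin makes pores in the target's membrane, granzymes are serine proteases that enter and start cell death, and NK-lysin is a saposin-like peptide related to human granulysin that breaks microbial membranes. Fas ligand kills through the receptor Fas on the target, and interferon gamma is the cytokine by which killer cells activate phagocytes. Mammalian thymocytes do not yet carry most of these proteins, which T cells make after they mature and meet antigen. Fish carry several copies of the perforin, granzyme and NK-lysin genes.

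The first library was made from lymphocytes of the thymus of untreated Tg(cd8a:EGFP) fish, which the labels call lck:mCherry+/CD8:EGFP+. The second was made from EGFP+ myeloid cells of melanoma in fish that carry BRAF V600E, p53 null and nacre null beside Tg(cd8a:EGFP), and its label gives SB431542, an inhibitor of the TGF-β receptor, for 24 h. Both are labelled 6 weeks of age, although the methods give another age for the thymus donors. In both lines a region upstream of *cd8a* drives EGFP, melanocytes of the melanoma line develop only where an *mitfa* minigene was put back, and whether a library came from 1 fish or from pooled fish is not given in the sources used here. Each group had 1 library, so tissue, genotype and drug cannot be told apart, no test was possible, and the values compare the libraries and not the conditions.

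Reads on genes numbered 32975680 in the thymus library against 39446435 in the myeloid library, and levels are given as reads per 1000000 of these (CPM). Intervals in parentheses are 95% Wilson intervals of a level or share and 95% exact binomial intervals of a fold, and they take in counting error alone, since the reads were amplified, carry no molecular identifiers and so do not stand for separate molecules. With 0 reads a gene may still have been present, and for folds it was set at 3 reads. That is 0.0910 CPM in the thymus library against 0.0761 CPM in the myeloid library. The upper Wilson limits for 0 reads are somewhat higher, at 0.116 and 0.0974 CPM. A fold given as "at least" is set against 3 reads and leaves out counting error, so it is not a confidence limit. All 7 T cell markers examined were at 1 CPM or more in the thymus library and none was in the myeloid library, where they summed to 0.938 CPM with 0 reads on *lck*, *cd28*, *cd247* and *cd247l*. Markers of mononuclear phagocytes were at 1 CPM or more for 15 of 24 genes in the myeloid library and 3 of 24 in the thymus library, and summed to 4052 CPM and 49.7 CPM. The myeloid library also held melanocyte genes at a summed 24355 CPM against 1.36 CPM, with 8 of 10 genes at 1 CPM or more in the myeloid library and none in the thymus library, and neutrophil genes at 832 CPM against 506 CPM, with *lyz* and *mmp13a* at 0 reads in the thymus library. Of the neutrophil genes, the myeloid level was 440 CPM for *mmp9*, 179 CPM for *mmp13a*, 29.2 CPM for *npsn* and 7.55 CPM for *lyz*. The thymus level of *mmp9* was 132 CPM. A *lect2* gene (ENSDARG00000090889) alone went the other way, with a thymus level of 373 CPM and a myeloid level of 108 CPM. The B cell list summed to 31.4 CPM in the myeloid library against 11.3 CPM in the thymus library. There *ighm* led with 21.8 against 6.55 CPM and *cd79b* had 4.46 against 0.394 CPM, while *cd79a* had 0 myeloid reads. Of the 11 immature thymocyte genes 10 were at 1 CPM or more in the thymus library, among them *rag1* at 51.0 CPM and *cd8b* at 83.3 CPM, while *dntt*, which encodes terminal transferase, had 0 reads. Of 13 genes of mature T cells and their egress 8 were also at 1 CPM or more there, beside 39.8% of all genes. Among these *klf2a* was at 329 CPM, *ccr7* at 285 CPM and *il7r* at 195 CPM, whereas *s1pr1* of the same list had 2 reads. The share of immature and mature cells in this library was not tested.

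The effector genes at 1 CPM or more are given for each library beside the share of all genes. In the thymus library *gzmk*, *gzma* and *prf1.1* reached 1 CPM, which is 3 of 19 genes, against 39.8% of all genes counted. In the myeloid library *nkl.2*, *prf1.8*, *prf1.5*, *gzm3.3* and *nkl.4* did, which is 5 of 19 against 33.0% of all genes. Among the 9 matched genes of the list itself, 2 were at 1 CPM or more in each library and 5 in neither. No effector gene was at 1 CPM or more in both libraries, beside 26.2% of all genes, and with so few genes above the threshold nothing is read from that count of 0.

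**Figure D1:**
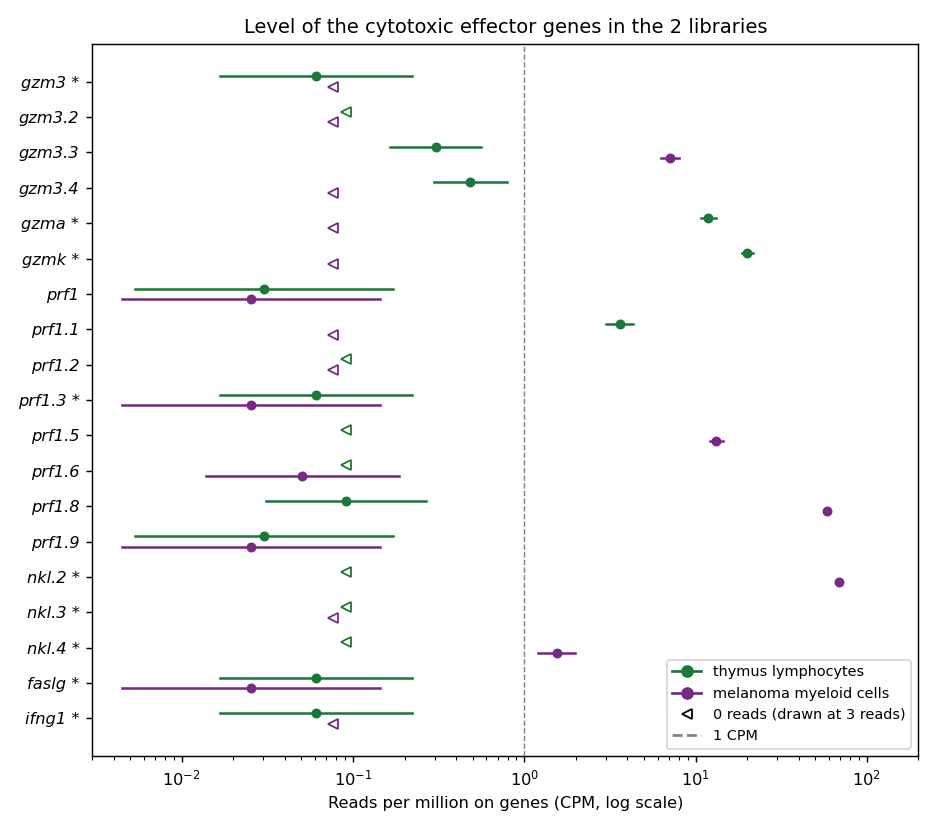
Level of each of the 19 effector genes in the thymus library (green) and the myeloid library (purple), in CPM on a log scale, with 95% Wilson intervals. Open triangles mark 0 reads and are drawn at the value of 3 reads, asterisks mark the genes of the list, and the dashed line is 1 CPM. To the right of the line lie 3 genes in green and 5 in purple, beside 39.8% and 33.0% of all genes. None lies there in both colours, beside 26.2% of all genes, and nothing is read from that.

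The granzymes with most reads in the thymus library were *gzmk* and *gzma*, named after mammalian granzymes that cut proteins behind basic residues. *gzmk* (ENSDARG00000028780) drew 661 reads from the thymus library, or 20.0 CPM (18.6 to 21.6), and 0 reads in the myeloid library. *gzma* (ENSDARG00000090380) had 391 reads, or 11.9 CPM (10.7 to 13.1), and also 0 reads in the myeloid library. Set against 3 reads, *gzmk* was at least 264-fold and *gzma* at least 156-fold higher in the thymus library.

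Of the 4 gzm3 genes, further granzymes of the zebrafish, only *gzm3.3* was higher in the myeloid library, unlike *gzmk* and *gzma*. *gzm3.3* (ENSDARG00000093990) was the one granzyme with reads in the myeloid library, with 280 reads, or 7.10 CPM (6.31 to 7.98), against 10 reads, or 0.303 CPM (0.165 to 0.558), in the thymus library. It was 23.4-fold (12.5 to 49.3) higher in the myeloid library. *gzm3.4* (ENSDARG00000076814) lay the other way, with 16 reads, or 0.485 CPM (0.299 to 0.788), in the thymus library against 0 in the myeloid library, at least 6.38-fold higher in the thymus library. The member of the list, *gzm3* (ENSDARG00000078451), had 2 reads in the thymus library against 0 in the myeloid library, and *gzm3.2* (ENSDARG00000055986) had 0 in both, so neither was detectable at this depth.

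Perforin reads also came from different copies in each library. *prf1.1* (ENSDARG00000030394) drew 119 reads from the thymus library, or 3.61 CPM (3.02 to 4.32), and 0 in the myeloid library, at least 47.5-fold higher in the thymus library. *prf1.8* (ENSDARG00000109428) had 3 reads in the thymus library against 2306 in the myeloid library, or 58.5 CPM (56.1 to 60.9), a ratio of 643 (219.6 to 3118). *prf1.5* (ENSDARG00000037598) had 0 reads in the thymus library against 522 in the myeloid library, or 13.2 CPM (12.1 to 14.4), at least 145-fold higher in the myeloid library. The listed copy, *prf1.3* (ENSDARG00000001572), had 2 reads in the thymus library against 1 in the myeloid library. No fold was computed for it or for *prf1.2*, *prf1.6*, *prf1.9* and a gene named PRF1 without a number (ENSDARG00000110781), each at 2 reads or fewer in both libraries.

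NK-lysin reads were found in the myeloid library alone. *nkl.2* (ENSDARG00000058673) had 2698 reads in the myeloid library, or 68.4 CPM (65.9 to 71.0), and 0 in the thymus library, at least 752-fold higher in the myeloid library. *nkl.4* (ENSDARG00000044023) had 61 reads there, or 1.55 CPM (1.2 to 1.99), and 0 in the thymus library, at least 17.0-fold higher in the myeloid library. *nkl.3* (ENSDARG00000089202) had 0 reads in both. In the same myeloid library the 7 T cell markers summed to 0.938 CPM, with 4 at 0 reads and *lat* highest at 29 reads. Of the 11 immature thymocyte genes 3 were at 1 CPM or more there, beside 33.0% of all genes. These were a *ccr9* gene (ENSDARG00000055186) at 529 CPM, *cd8a* with 163 reads, or 4.13 CPM, and *rag2* with 79 reads. *cd8b* had 0 reads, and *rag1* and *themis* had 1 read each. The part that T cells, melanocytes, neutrophils or other cells in the sort had in the NK-lysin and perforin reads was not tested, and fewer cells of a type and less RNA per cell cannot be told apart in bulk samples.

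The 2 listed effectors that do not belong to the granule families were near 0 in both libraries. *faslg* (ENSDARG00000098913), the Fas ligand gene, drew 2 reads from the thymus library, or 0.0607 CPM (0.0166 to 0.221), and 1 read in the myeloid library. *ifng1* (ENSDARG00000024211), the interferon gamma gene, had 2 reads in the thymus library against 0 in the myeloid library. Neither gene was above 3 reads in either library, so no fold was given.

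**Figure D2:**
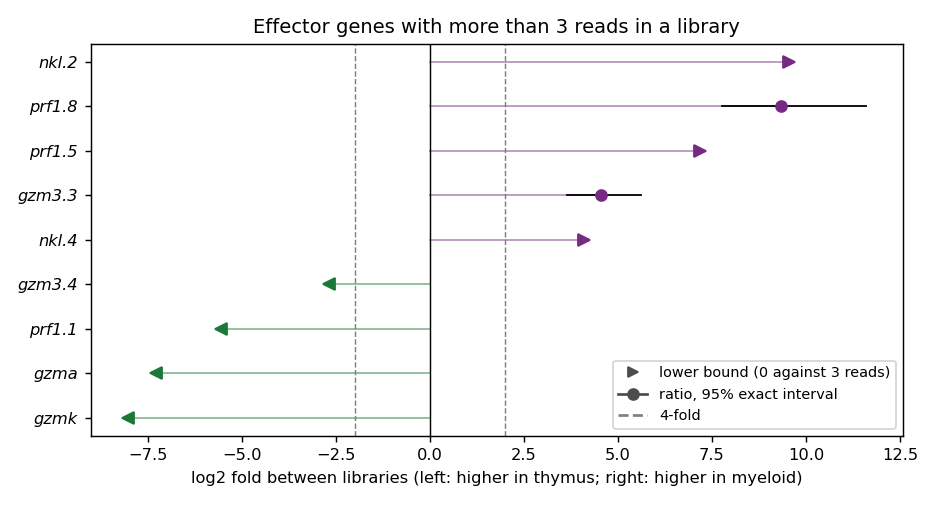
Fold between the libraries, on a log2 scale, for the 9 effector genes with more than 3 reads in a library. Arrowheads are lower bounds set against 3 reads without counting error, circles are ratios with their 95% exact intervals, and dashed lines mark 4-fold. From *nkl.4* at 17.0-fold upward 5 genes lie on the myeloid side, and from *gzm3.4* at 6.38-fold downward 4 lie on the thymus side.

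By a rule of 4-fold or more with 10 reads or more in 1 library or both, 4 of the 19 genes were higher in the thymus library, namely *gzmk*, *gzma*, *prf1.1* and *gzm3.4*, against 22.3% of all genes. The 5 higher in the myeloid library were *nkl.2*, *prf1.8*, *prf1.5*, *gzm3.3* and *nkl.4*, against 10.8% of all genes. These 9 were the only effector genes to reach 10 reads. A gene could pass that filter on the reads of 1 library alone, which favours genes that differ, so nothing is read from all 9 being called. Of the 9 matched listed genes 2 were higher in each library and 5 were not called. Their median log2 ratio of myeloid over thymus level, after adding 1 CPM to each, was −0.05, with 5 of the 9 at 3 reads or fewer in both libraries and so near 0. Over the 4 that reached 10 reads it was −1.17, beside −0.56 over the 17327 genes that passed the same filter. Of the 4, 2 were higher in each library, each with 0 reads in the other. Their ratios depend on the added 1 CPM, so nothing is read from −1.17.

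Effector genes at 3 reads or fewer in a library were taken as not detectable there at this depth. In the thymus library 14 of the 19 genes were at 3 reads or fewer, namely *gzm3*, *gzm3.2*, every perforin except *prf1.1*, all 3 matched NK-lysins, *faslg* and *ifng1*. In the myeloid library 14 genes were likewise at 3 reads or fewer, and these were every granzyme except *gzm3.3*, every perforin except *prf1.5* and *prf1.8*, and *nkl.3*, *faslg* and *ifng1*. The sets shared 10 genes, beside 39.8% of all genes at 3 reads or fewer in both libraries. The share of all genes at 3 reads or fewer in a single library was not computed, so nothing is read from either count of 14.

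**Figure D3:**
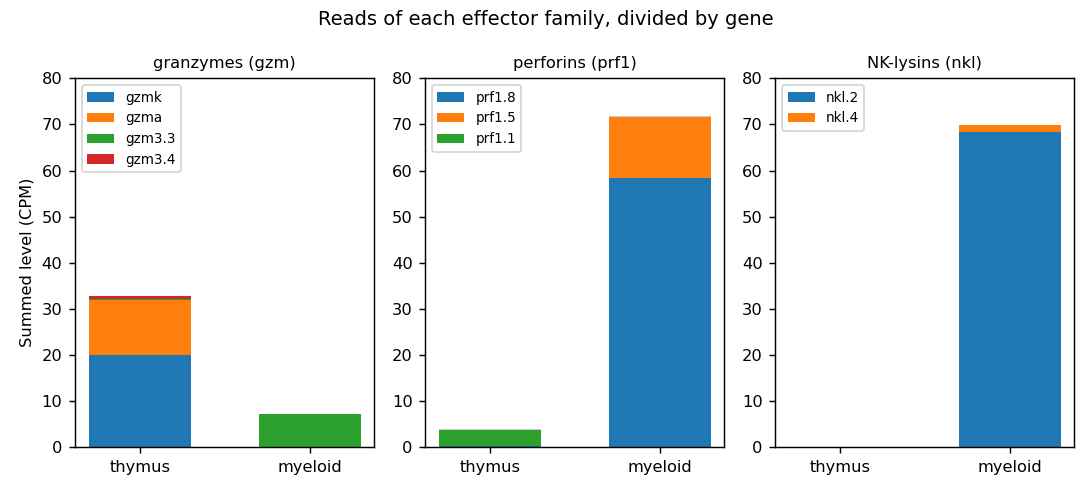
Summed level of each effector family in the thymus and the myeloid library, in CPM, with the contribution of each gene in colour (colours are set separately in each panel). Granzyme reads summed to 32.8 CPM in the thymus library against 7.10 CPM in the myeloid library, perforin reads to 3.82 and 71.8 CPM, and NK-lysin reads to 0 and 69.9 CPM.

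Summed over a family, granzymes were higher in the thymus library and perforins and NK-lysins in the myeloid library. The 6 granzyme genes gave 1080 reads, or 32.8 CPM (30.9 to 34.8), in the thymus library and 7.10 CPM (6.31 to 7.98) in the myeloid library, 4.61-fold (4.04 to 5.28) higher in the thymus library and 3.08-fold higher after TMM scaling, which corrects library sizes for composition. The 8 perforin genes gave 126 reads, or 3.82 CPM (3.21 to 4.55), and 2833 reads, or 71.8 CPM (69.2 to 74.5), 18.8-fold (15.7 to 22.7) higher in the myeloid library. The 3 NK-lysin genes gave 0 and 2759 reads, or 69.9 CPM (67.4 to 72.6), at least 769-fold higher in the myeloid library. One or a pair of genes carried each sum. Of the granzyme reads of the thymus library 61.2% (58.3 to 64.1) were on *gzmk* and 36.2% (33.4 to 39.1) on *gzma*, and of those of the myeloid library all 280 were on *gzm3.3*. Of the perforin reads *prf1.1* took 94.4% (89.0 to 97.3) in the thymus library, and *prf1.8* took 81.4% (79.9 to 82.8) and *prf1.5* 18.4% (17.0 to 19.9) in the myeloid library. *nkl.2* took 97.8% (97.2 to 98.3) of the NK-lysin reads of the myeloid library. These are shares of reads that were not scaled for gene length, and reads that aligned to several places, as reads from near-identical copies can, were not counted on genes in the thymus table.

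Most granzyme, perforin and NK-lysin genes lie in small clusters, though *prf1.3* lies 385 protein-coding genes from *prf1.2*. In most clusters at least 1 copy was at 2 reads or fewer in both libraries, and such a copy has no pattern to compare. Where more than 1 copy was called by the 4-fold rule described above, *nkl.2* and *nkl.4* went the same way, as did *gzmk* and *gzma*. Only *gzm3.3* and *gzm3.4* went opposite ways. In the RefSeq annotation of assembly GRCz12tu the 4 gzm3 genes are neighbours with 0 protein-coding genes between them, and within this run *gzm3.3* was higher in the myeloid library, the adjoining *gzm3.4* in the thymus library, and *gzm3* and *gzm3.2* were at 2 reads or fewer. In the NK-lysin run *nkl.3*, at 0 reads in both libraries, sits between *nkl.4* and *nkl.2*, both of which were higher in the myeloid library. *prf1.9*, with 1 read in each library, adjoins *prf1.1*, and *prf1.2*, with 0 reads, is in 1 run with *prf1.7*, which was not analysed here, and *prf1.8*. *prf1.5* and *prf1.6*, with 1 protein-coding gene between them, had 522 and 2 reads in the myeloid library but 0 reads each in the thymus library. *gzmk* and *gzma*, also with 1 protein-coding gene between them, had the same pattern, reads in the thymus library against 0 reads in the myeloid library.

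**Figure D4:**
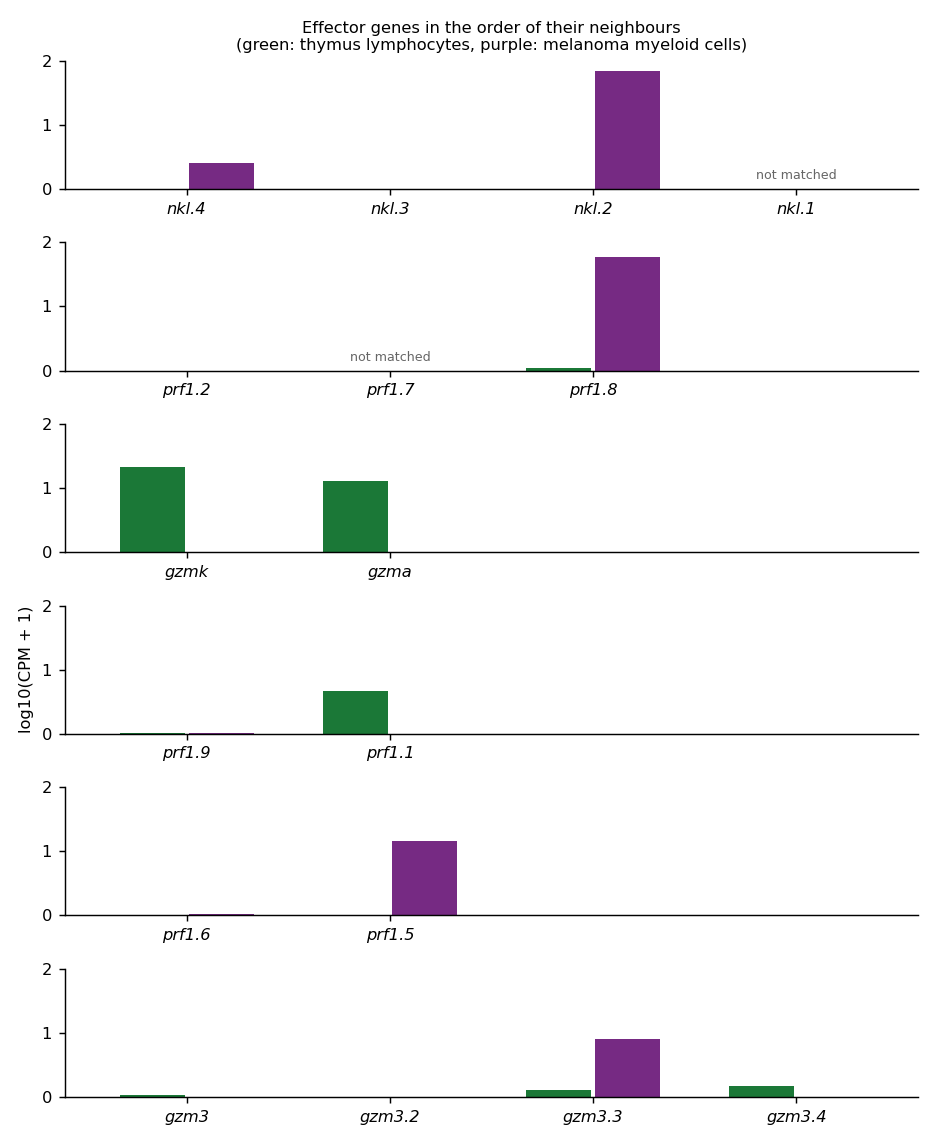
Level of neighbouring effector genes as log10(CPM + 1), each row 1 run of genes in the order of the RefSeq annotation of GRCz12tu, with the thymus library in green and the myeloid library in purple. Distances are not drawn. *gzmk* and *gzma* share their pattern, whereas *gzm3.3* stands above its neighbours in the myeloid library only.

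Among the effector genes called by the 4-fold rule, *gzmk* and *prf1.8* overlap other genes in the RefSeq annotation of GRCz12tu. The counts were made on Ensembl genes, with build GRCz11 named. *gzmk* held 61.2% of the granzyme reads of the thymus library and *prf1.8* 81.4% of the perforin reads of the myeloid library. These family sums could therefore be touched as well. In the RefSeq annotation *gzmk* overlaps *rxfp3*, a relaxin-family receptor gene, which had 33 reads in the thymus library against 0 in the myeloid library. *gzm3* overlaps *rabl3*, which had 60 and 370 reads, and *prf1.2*, *prf1.7* and *prf1.8* overlap 1 locus without a gene name. Whether the counting used strand, and whether its annotation holds these overlaps, is not given in the sources used here. How reads shared by *gzmk* and *rxfp3*, or by *prf1.8* and its partner, were counted is therefore not known. *gzma*, *gzm3.3*, *gzm3.4*, *prf1.1*, *prf1.5*, *nkl.2* and *nkl.4* overlap no other gene there.

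Most genes listed for filling and releasing granules were at 1 CPM or more in both libraries. The list also held genes of lysosomes in general, such as *psap*, so its counts are no measure of killer granules. The part that melanocytes had in these reads was not tested. Of the 29 listed genes 25 were at 1 CPM or more in the thymus library against 27 in the myeloid library. These counts stand beside 39.8% and 33.0% of all genes. By the 4-fold rule 7 were higher in the thymus library, beside 22.3% of all genes, and 6 in the myeloid library, beside 10.8%, and the median log2 ratio was 0.24, beside −0.56 over all genes with reads as above. *psap*, the precursor of the lysosomal saposins, was at 1227 CPM in the thymus library against 180.4 CPM in the myeloid library, 6.80-fold (6.63 to 6.98) higher in the thymus library. *ctsc*, the protease that activates granzymes in mammals, was at 279 and 306 CPM, and *srgn*, the proteoglycan core of the granule, at 183 and 119 CPM, so both differed by less than 4-fold. *cd63*, a granule membrane tetraspanin, was at 383 and 1250.1 CPM, 3.26-fold higher in the myeloid library and 4.88-fold after TMM scaling.

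Single genes of granule release differed between the libraries in both directions. *unc13d*, which primes granules for fusion, was at 267 CPM in the thymus library against 16.5 CPM in the myeloid library, 16.2-fold (14.9 to 17.5) higher in the thymus library. Its partner *stxbp2* was at 420.2 and 99.9 CPM, 4.21-fold (4.06 to 4.36) higher in the thymus library, a call that 3 other library scalings took below 4-fold, to 2.81-fold at the lowest. *rab27b*, a GTPase that docks secretory vesicles, had 0 reads in the thymus library against 60.9 CPM in the myeloid library, at least 669.6-fold higher there, while *rab27a* was at 32.0 and 12.8 CPM.

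The receptor and the initiator caspase that carry the Fas signal were above 1 CPM in both libraries, and the ligand was at 2 reads or fewer. Of 17 genes, *faslg* among them, 6 were higher in the thymus library (22.3% of all genes) and 4 in the myeloid library (10.8% of all genes), with a median log2 ratio of −0.16. The receptor *fas* was at 91.5 CPM in the thymus library against 2.97 CPM in the myeloid library, 30.8-fold (25.6 to 37.4) higher in the thymus library. The initiator caspase *casp8* was at 204 and 31.3 CPM, 6.50-fold (6.12 to 6.92) higher in the thymus library, and its regulator *cflara* at 212 and 14.0 CPM, 15.1-fold (13.9 to 16.5).

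Of the ligand genes other than *faslg*, *tnfb*, *tnfa*, *tnfsf10l3* and *tnfsf10* were higher in the myeloid library, and *tnfsf10l* and *tnfsf10l4* in the thymus library, with *tnfsf10l* at 5.68-fold (1.89 to 23.0) and below 4-fold, at 3.79-fold, after TMM scaling. *tnfb*, a tumour necrosis factor gene, was at 83.4 CPM in the thymus library against 352 CPM in the myeloid library, 4.23-fold (4.06 to 4.41) higher in the latter. *tnfa* was at 4.25 and 171 CPM, 40.3-fold (34.1 to 47.9) higher in the myeloid library. *tnfsf10l3*, a gene like the death ligand TRAIL, had 1 read in the thymus library against 42.4 CPM in the myeloid library, a ratio of 1398 (251 to 55239.9). *tnfsf10l4*, another such gene, had 2.12 CPM in the thymus library but 0 reads in the myeloid library, at least 27.9-fold higher in the former.

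Interferon gamma itself was at 2 reads or fewer, but some of the genes that receive and induce it were read in each library. Of the 21 genes of this list, *ifng1* included, 10 were higher in the thymus library (22.3% of all genes) and 5 in the myeloid library (10.8%), with a median log2 ratio of −0.44. The kinase *jak1* was at 1549.7 CPM in the thymus library against 34.9 CPM in the myeloid library, 44.5-fold (42.1 to 46.9) higher in the thymus library, and *jak2a* at 327 and 0.406 CPM, 807-fold (497 to 1413) higher there. The receptor chain gene *ifngr1l* was at 104 CPM in the thymus library against 5.73 CPM in the myeloid library, whereas *ifngr1* had 0 reads and 5.65 CPM. *ifngr2* was at 148 and 271 CPM, within 4-fold.

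Interleukin-12 drives interferon gamma in mammalian T cells, and its receptor and subunit genes differed between the libraries one by one. The receptor gene *il12rb2* was at 19.0 CPM in the thymus library with 1 read in the myeloid library, a ratio of 751 (134 to 29719), and *stat4*, which acts below this receptor, at 269 and 3.93 CPM, 68.4-fold (58.3 to 80.7) higher in the thymus library. The subunit gene *il12ba* had 0 reads in the thymus library against 7.12 CPM in the myeloid library, at least 78.3-fold higher there. *il12bb*, a gene for the same subunit, was at 2.85 and 14.7 CPM, and *il12a*, for the other subunit, had 20 reads in the thymus library but 0 in the myeloid library. The further receptor gene *il12rb2l* was at 179.7 and 40.2 CPM. *ifng1r*, a second type II interferon gene of fish, had 0 reads in both libraries.

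**Figure D5:**
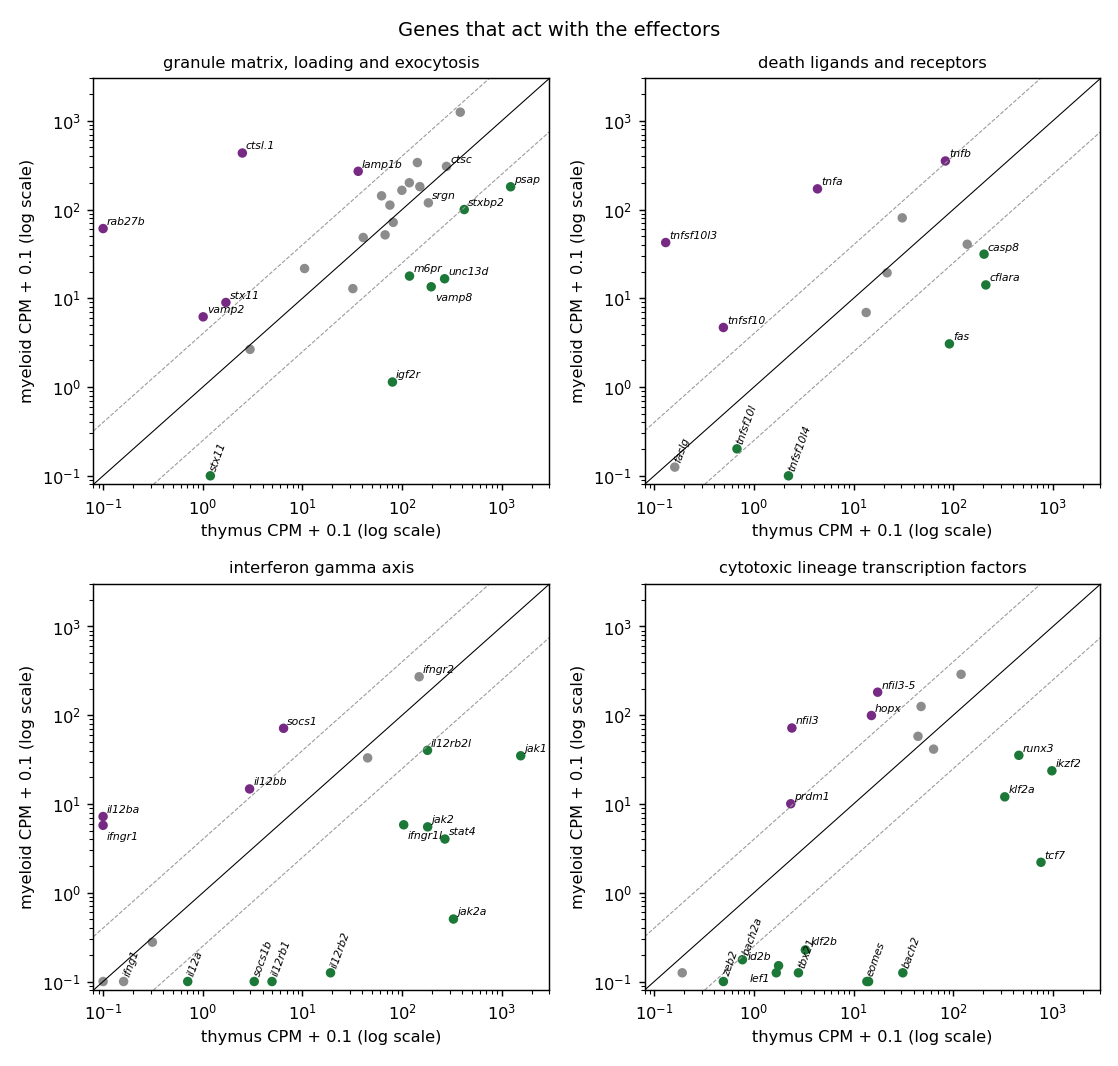
Level of genes that act with the effectors in the thymus library (x axis) and the myeloid library (y axis), each as CPM + 0.1 on log axes, in 4 lists, without the list genes that are not reported here. Green and purple points are 4-fold or more higher in the thymus or the myeloid library, grey points are not, the solid line marks equal levels and dashed lines 4-fold. *faslg* and *ifng1* sit at the lower left of their panels, with *fas* at 91.5 CPM and *jak1* at 1549.7 CPM far to the right.

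Transcription factors listed for the killer lineage were not all read in both libraries. The list also held *tcf7*, a factor of the stage before effectors, and *bach2*, a repressor of effector genes. Its counts are therefore no measure of a killer programme. Of 22 genes 19 were at 1 CPM or more in the thymus library against 12 in the myeloid library, beside 39.8% and 33.0% of all genes. By the 4-fold rule 13 were higher in the thymus library, beside 22.3% of all genes, and 4 in the myeloid library, beside 10.8%, and the median log2 ratio was −0.98. The 4 were *nfil3* at 2.30 and 71.7 CPM, *nfil3-5* at 17.3 and 182 CPM, *hopx* at 15.0 and 99.2 CPM and *prdm1* at 2.24 and 9.96 CPM, with folds from 4.44 to 31.1. *runx3*, which turns on the CD8 programme in mammals, was at 455 and 35.3 CPM, 12.9-fold (12.2 to 13.6) higher in the thymus library. *tcf7*, which marks T cells before they become effectors, was at 759 and 2.10 CPM, 361-fold (291 to 453) higher, and *ikzf2* at 977 and 23.6 CPM, 41.4-fold (38.8 to 44.3) higher.

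The T-box factors that switch on perforin and granzyme genes in mammals were also higher in the thymus library, with 1 read or fewer in the myeloid library. Of the pair of *eomes* genes, ENSDARG00000006640 was at 14.0 CPM and ENSDARG00000104243 at 13.5 CPM, with 0 reads on either in the myeloid library, at least 185-fold and 177-fold higher in the thymus library. *tbx21*, which encodes T-bet, had 2.70 CPM in the thymus library but 1 read in the myeloid library, a ratio of 106 (18.6 to 4252). *bach2*, a repressor that holds back effector genes in mammals, was at 31.1 CPM with 1 read in the myeloid library, a ratio of 1227 (219.8 to 48523.6). *bhlhe40* was at 119.8 and 289 CPM, within 4-fold.

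Receptors of NK and innate lymphoid cells held a pair of large families whose summed levels were higher in opposite libraries. Of 40 genes 8 were at 1 CPM or more in each library, a smaller share than among all genes (39.8% thymus, 33.0% myeloid). The 4-fold rule called 10 genes higher in the thymus library, beside 22.3% of all genes, and 6 higher in the myeloid library, beside 10.8%. The median log2 ratio was −0.04, the value of a gene with 1 thymus read and 0 myeloid reads. Of the 40 genes, 25 had 3 thymus reads or fewer and 32 had 3 myeloid reads or fewer, so nothing is read from this median. The 24 nitr genes, immunoglobulin receptors that fish NK-like cells carry, summed to 11.6 CPM in the thymus library against 0.152 CPM in the myeloid library, 76.2-fold (34.7 to 209) higher in the thymus library. The 9 dicp genes, related immunoglobulin-domain receptors, summed to 0.455 and 295 CPM, 648-fold (393 to 1158) higher in the myeloid library. They were led in reads by *dicp2.2*, with 2 reads and 159 CPM. A part of each family carried its sum. In the thymus library 3 nitr genes were at 1 CPM or more, beside 39.8% of all genes. In the myeloid library 4 dicp genes were, beside 33.0% of all genes. The interleukin-2 receptor genes *il2rb* and *il2rga* had 29.6 and 70.7 CPM in the thymus library but 2 and 0 reads in the myeloid library, and *fcer1gl*, a signalling adaptor gene, had 0 reads in the thymus library against 49.8 CPM in the myeloid library. The myeloid library held 11624 dicp reads and 6 nitr reads. Whether these came from the cells that gave its NK-lysin and perforin reads was not tested.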

How the data were processed

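From sorted cells 1 ng of RNA went into SMART-Seq amplification and Nextera XT libraries. The authors deposited, for each Ensembl gene, the raw count of its reads. The submitters' processing notes name cutadapt, STAR 3.0, HTSeq and build GRCz11, whereas the methods describe TopHat, GRCz10 and FPKM values from Cufflinks, and the counting options and annotation release are not given in the sources used here. Rare transcripts can be lost when so little RNA is amplified, so a gene at 0 reads may have been present. The thymus table held 5 summary counts, 28.4% of its reads, which were not used, with 6966482 reads, 15.1% of its reads, not uniquely aligned. The myeloid table held 0 summary counts.

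Symbols were matched in any case to 29201 gene identifiers. CPM, Wilson intervals and exact conditional binomial intervals of ratios were computed in Python 3.11.15 (numpy 2.4.6, pandas 2.3.3, scipy 1.17.1), and figures were drawn with matplotlib 3.10.9. The calculations were tested on simulated data in which the changed genes lay above the levels of most effector genes. How well differences are found at low counts was therefore not tested. Where a library had 0 reads the fold was set against 3 reads as a lower bound that leaves out counting error. With 1 to 3 reads a ratio with its interval was given, and no fold was given where both libraries had 3 reads or fewer. A gene was called higher at 4-fold or more with 10 reads or more in 1 library or both. Other library sizes came from edgeR 4.0.16 (TMM) and DESeq2 1.42.0 in R 4.3.3.

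The members and lists were chosen with earlier results of these data known. Named genes were all members, the 10 highest granzyme, perforin and NK-lysin genes, the 4 highest genes of each other list by summed CPM, and list genes at 3 reads or fewer in one library and 10 CPM or more in the other. *srgn*, *unc13d*, *rab27a*, *fas*, *tnfa*, *tnfsf10*, *tnfsf10l*, *tnfsf10l4*, *ifngr1*, *ifngr1l*, *ifng1r*, *il12a*, *il12ba*, *il12bb*, *stat4*, *tbx21*, *nfil3*, *nfil3-5*, *hopx*, *prdm1*, *lat*, *cd8a*, *rag2*, *il12rb2l*, *zeb2*, *cd247*, *s1pr1*, *lyz* and *dntt*, and the effector genes at 3 reads or fewer beyond the highest 10, were chosen after their values were seen. A list symbol with no match was also tried without its paralog letter or number, a rule added after the data were seen. RefSeq GRCz12tu served for neighbours and overlaps only. Levels per gene length and sequences were not used here. Some genes that the naming rule selects are not reported here.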

Additional observations from a re-analysis of the deposited data

How the results depend on the processing

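No paired analysis was possible because each group had 1 library, and for the same reason no library could be left out. Of 56 counts of effector genes under other thresholds, folds, filters, library sizes or sums over shared symbols, 1 changed by more than 1.5 times. At a threshold of 5 CPM only 1 listed gene, *nkl.2*, was expressed in the myeloid library in place of 2. Smaller changes also occurred among the granzyme, perforin and NK-lysin genes. At 5 CPM 2 were expressed in the thymus library in place of 3, without *prf1.1*, and 4 in the myeloid library in place of 5, without *nkl.4*. At 8-fold, and also with at least 50 reads, 3 were higher in the thymus library in place of 4, without *gzm3.4*. The median log2 ratio of the 9 matched listed genes was −0.05, and it was −0.36 with 0.1 CPM added in place of 1 CPM. Over the 4 of them that reached 10 reads it was −1.17, from which nothing is read. That alternative keeps fewer genes. Scaling by TMM moved the median log2 ratio of all genes by 0.24, by DESeq2 size factors by 0.23, and without the 10 genes with most reads by 0.01. The share of 4-fold calls that were higher in the thymus library was 67.3%, and it was 59.0% with TMM, 59.8% with DESeq2 and 66.5% without those 10 genes. Of 66 levels under these scalings 18 left their counting interval and 0 crossed 1 CPM. The granzyme sum was 4.61-fold higher in the thymus library and 3.08-fold with TMM, the perforin sum 18.8-fold and 28.2-fold higher in the myeloid library. With TMM *stxbp2* (2.81-fold), *tnfsf10l* (3.79-fold), *il12rb2l* (2.99-fold), *zeb2* (3.46-fold) and *cxcr3.3* (3.87-fold) fell below 4-fold, and *cd63* (4.88-fold), *mmp9* (4.99-fold) and *ighm* (4.99-fold) rose above it in the myeloid library. Alternatives for the families, the lists and the sums were added after the data were seen. The order of the genes by level per length was not run. The genes at 3 reads or fewer were not detectable at this depth, and whether they were absent from the cells was not tested. In a check chosen after values were seen, 3 of 140 genes for subunits of common complexes were also at 3 reads or fewer in each library.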
